A study of Mus musculus with 36 samples.

Results

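The 10 genes described here make the MHC class I molecule, load it with peptide, cut that peptide in the immunoproteasome or switch the pathway on, and they were chosen by name among the 49568 gene names listed in each of 2 count tables. They were *H2-K1* and *H2-D1* (class I heavy chains), *B2m* (the light chain, β2-microglobulin), *Tap1*, *Tap2* and *Tapbp* (peptide transport and loading), *Psmb8*, *Psmb9* and *Psmb10* (immunoproteasome subunits) and *Nlrc5* (the transactivator of class I genes). All 10 passed the filter on low counts in every fit. The cells were RAW264.7, a mouse macrophage line, and RNA-seq counts were made for 18 libraries in each table, in a PBS, a 65–79*SE and a 65–79*PE group of 6. The peptides come from the same stretch of human HLA-DRβ chains, 65–79*PE with the protective epitope and 65–79*SE with the shared epitope, which marks alleles that raise the risk of rheumatoid arthritis. Peptide groups received 100 µg/ml of peptide with 5 ng/ml of IFNγ, which drives macrophages to the M1 state, in one table, or with 5 ng/ml of Il-4, which drives them to the M2 state, in the other, and RNA was taken at 72 h. PBS libraries carried the cytokine of their table in the title. The sources used here do not settle whether those cells received it, so each contrast with PBS is given as labelled. In the IFNγ table, PBS libraries had next to none of the class II transcript *H2-Aa* (levels below), and what those cells received was not tested. No group was labelled as cytokine alone or peptide alone. Where PBS lacked the cytokine, a contrast with PBS cannot tell its effect from that of the peptide. Replicates 1–3 and 4–6 were named by different schemes and are shown apart, with 3 libraries per group in each set.

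Class I molecules display fragments of the cell's own proteins to CD8 T cells. The fragments are cut by the proteasome, carried into the endoplasmic reticulum by the TAP transporter, fitted into the heavy chain with the help of tapasin and held there with β2-microglobulin. IFNγ is the classical inducer of this pathway in macrophages, in which *Psmb8*, *Psmb9* and *Psmb10* take the places of the constitutive catalytic subunits *Psmb5*, *Psmb6* and *Psmb7* and NLRC5 acts at class I promoters.

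The IFNγ libraries labelled 65–79*SE replicates 4–6 stood apart from their label. *H2-Aa*, an MHC class II chain that macrophages make under IFNγ, averaged 545 ± 40.3 CPM (read counts normalised to library size, ± SD, n = 3) in 65–79*SE replicates 1–3 but 0.0636 ± 0.110 CPM in replicates 4–6, with PBS at 0.118 ± 0.0234 and 0.112 ± 0.143 CPM and 65–79*PE at 827 ± 45.7 and 474 ± 74.3 CPM. Results on 65–79*SE in that table are therefore given by set of replicates, and the pooled values come last. Library totals lay between 20.7 and 63.2 M counts under IFNγ and between 17.05 and 30.6 M under Il-4. The share of counts in protein-coding genes also differed between the sets, at 85.1 to 85.7% in replicates 1–3 and 62.1 to 69.8% in replicates 4–6 of the IFNγ table, and 95.4 to 97.5% and 78.6 to 87.4% in the Il-4 table. The part of this difference in the results was not tested. All 7 macrophage markers were expressed, with a summed level between 3858 and 7567 CPM under IFNγ and between 3436 and 10092 CPM under Il-4, while the summed T cell, B cell and epithelial markers stayed under 1 CPM, the fibroblast markers reached at most 1.24 CPM and the dendritic cell markers at most 2.13 CPM.

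Most of the 10 genes lie together in the mouse MHC on chromosome 17, and the stretches upstream of the heavy and light chain genes show the letters that the class I regulators are known to read. RefSeq windows of GRCm38.p6 were at hand for 8 of the 10 genes. In the 250 bases before the listed start, an interferon response motif (GAAANNGAA or GAANNGAAA, either strand) was in the windows of 3 of these 8 genes, *H2-K1*, *H2-D1* and *B2m*, against 12.5% of 32851 windows. The TGACG core of the X2 box and the CCAAT box, 2 of the elements of class I promoters, occurred together in 5 of the 8 genes, against 6.12% of windows, although the windows of *Tap1* and *Psmb9* overlap by 225 bases and hold the same match of each. The sequences are shown because the 3 genes share 1 arrangement: TGACG, then 20 bases, then the reversed CCAAT letters, which only 30 of the 32851 windows (0.0913%) held. That spacing was noticed after these sequences were read, and among the other listed genes it was also in the window of *H2-M3*. Capitals mark the interferon response motif, the X2 core and the CCAAT box, each written 5′ to 3′ on the strand of its gene. The stretch of *H2-K1* lies just upstream of the annotated gene at chr17:34000354-34000442 on the minus strand, and that of *B2m* at chr2:122147543-122147643 on the plus strand, within an intron of *Patl2*, which runs the other way.
H2-K1: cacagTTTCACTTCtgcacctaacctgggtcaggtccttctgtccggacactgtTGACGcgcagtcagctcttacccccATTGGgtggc
B2m: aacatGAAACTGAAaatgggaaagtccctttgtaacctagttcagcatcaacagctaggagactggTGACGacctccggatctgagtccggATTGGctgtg
The matching pieces of *H2-D1* lie at chr17:35262939-35262958 and chr17:35262993-35263022 on the plus strand, in an annotated 5′ untranslated exon.
H2-D1, interferon response motif: ctcagTTTCACTTCtgcacc
H2-D1, X2 core to CCAAT box: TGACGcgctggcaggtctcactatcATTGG
Over the 89 bases that the *H2-K1* stretch covers, *H2-D1* had the same base at 78 positions (87.6%). A match of letters is a description of the window and not a measured binding site.

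All 10 genes rose with IFNγ and 65–79*PE against PBS, in both sets of replicates and in every library. How many of all genes separated from PBS in this way is not at hand. In replicates 1–3 the rise ran from 1.69-fold for *Tapbp* to 8.70-fold for *Psmb9*, with a median log2 fold change of 1.95 beside 0.00 over all genes tested. The range in replicates 4–6 was from 1.87-fold for *Tapbp* to 8.57-fold for *Psmb9*, with a median of 1.59. Calls needed a fold change over 1.5 and, in edgeR's quasi-likelihood test, a p under 0.05 after Benjamini-Hochberg adjustment over all genes tested. The 10 calls of 10 stood against 10.3% of 15343 genes called higher in replicates 1–3 and 6.16% of 15563 genes in replicates 4–6. Adjusted p in the edgeR fits lay between 2.86e-13 and 7.12e-08 and between 1.28e-09 and 1.18e-05. These p-values measure only the spread between the libraries of a set, and in such bulk RNA a larger share of responding cells cannot be told apart from more RNA per cell.

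**Figure D1:**
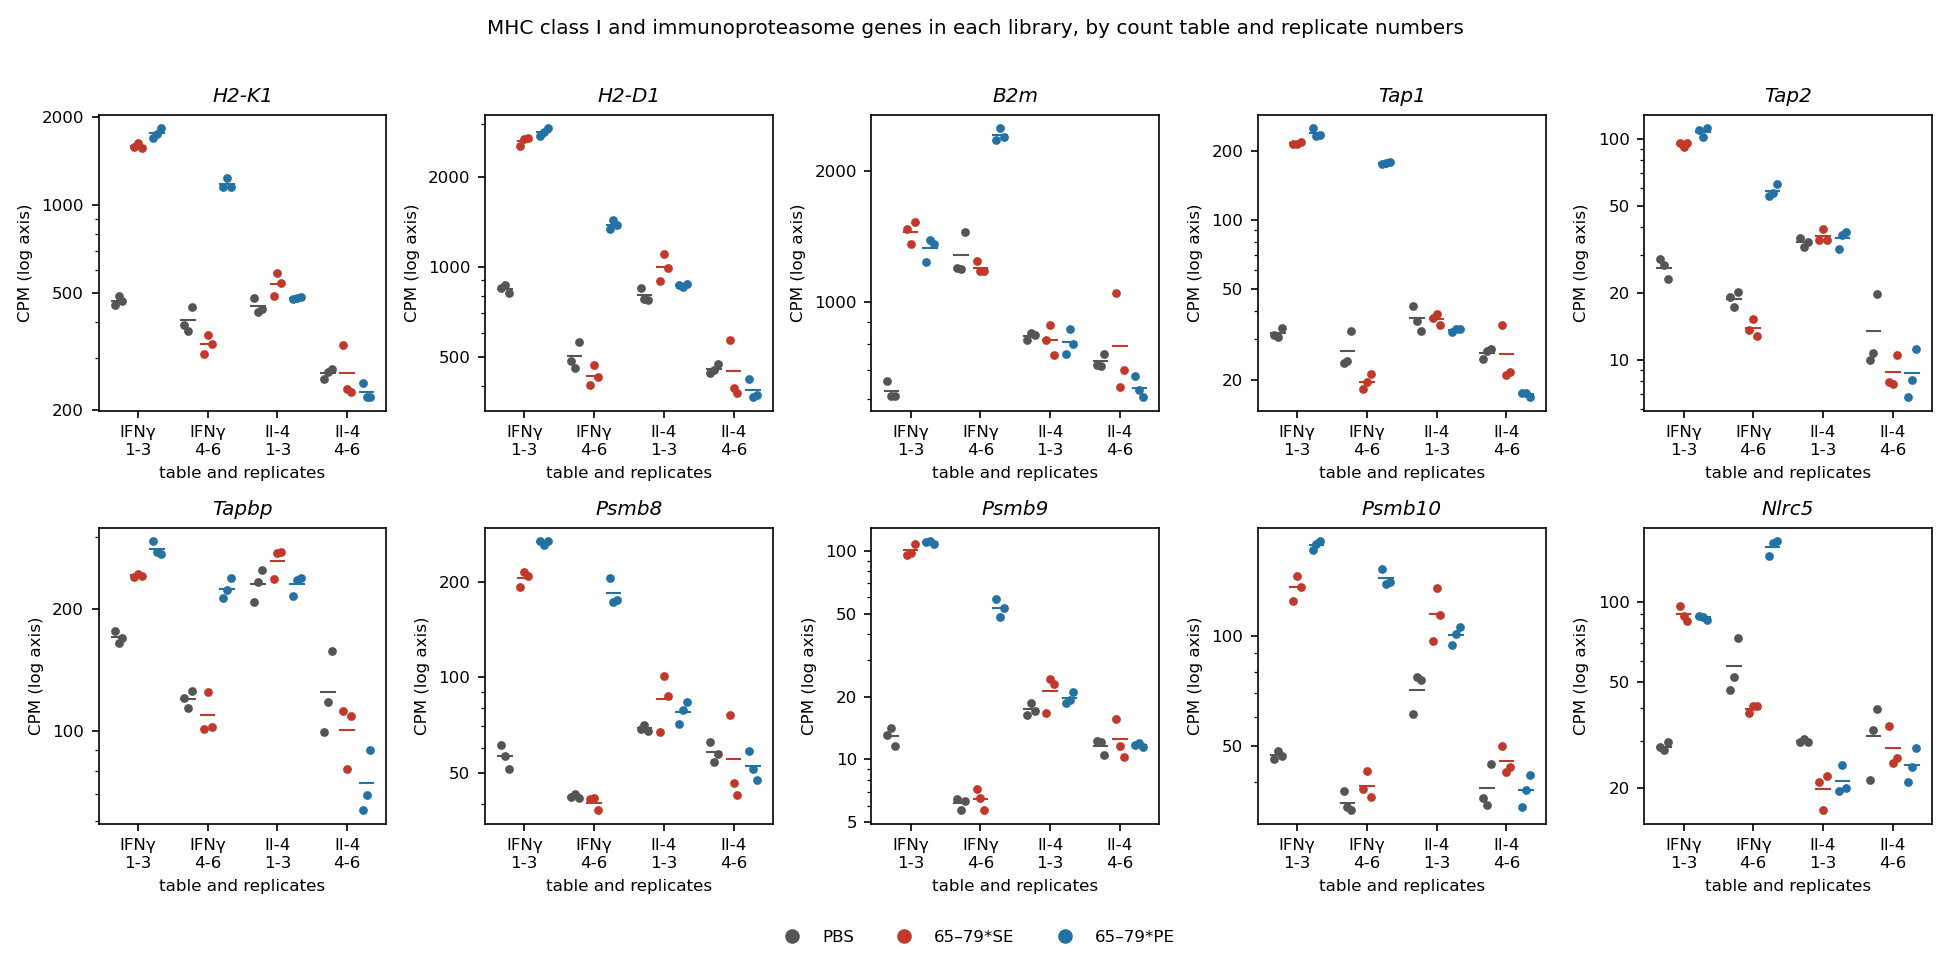
Level of each of the 10 genes in each library, in CPM on a log axis, by count table and replicate numbers; points are libraries, colours are groups and bars are means of 3 libraries. The 65–79*PE points of the IFNγ table lie above the PBS points of the same set for every gene, while the 65–79*SE points do so in replicates 1–3 alone.

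The heavy chains *H2-K1* and *H2-D1* form the peptide groove that CD8 T cells read. *H2-K1* (chromosome 17, 33996017 to 34000347, minus strand, GRCm38) stood at 454, 488 and 469 CPM in PBS replicates 1–3 and at 1705, 1748 and 1834 CPM with 65–79*PE. The same groups of replicates 4–6 stood at 389.8, 371 and 450.3 CPM and at 1157, 1241 and 1154 CPM. Every 65–79*PE library was thus higher than any PBS library of either set, with log2 fold changes of 1.94 ± 0.06 (standard error) and 1.55 ± 0.09. *H2-D1* (chromosome 17, 35262730 to 35267499, plus strand) went from 844 ± 28.6 CPM (SD, n = 3) to 2818 ± 85.4 in replicates 1–3 and from 501 ± 52.2 to 1381 ± 49.2 in replicates 4–6, which was 3.43-fold and 2.75-fold. Per kilobase of exon, *H2-D1* was the more abundant heavy chain, at 2.04 ± 0.0712 times *H2-K1* in PBS replicates 1–3 and 1.42 ± 0.00367 times in replicates 4–6. RAW264.7 cells carry the H-2d haplotype and the reference genome carries H-2b, so these levels rest on reads placed across haplotypes, and 0.957% of 100-base windows of *H2-K1* and 3.59% of those of *H2-D1* recur in another gene.

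*B2m*, the light chain shared by all class I molecules, had smaller fold changes than its heavy chains. It stood at 659, 610.4 and 610.1 CPM in PBS replicates 1–3 and at 1237, 1391 and 1356 CPM with 65–79*PE, and at 1195, 1191 and 1451 against 2352, 2505 and 2386 CPM in replicates 4–6. The groups did not overlap within a set, but PBS replicates 4–6 reached the level of 65–79*PE replicates 1–3. The log2 fold changes were 1.12 ± 0.06 and 0.92 ± 0.09, where the groups' means differed 2.18-fold and 1.89-fold. Per kilobase, the ratio of *B2m* to *H2-K1* went from 4.56 ± 0.353 to 2.57 ± 0.128 in replicates 1–3 and from 10.8 ± 0.297 to 6.97 ± 0.0871 in replicates 4–6, with no overlap between PBS and 65–79*PE in either set.

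The TAP genes, whose products form the transporter as a pair, rose by different folds. *Tap1* (chromosome 17, 34187553 to 34197225, plus strand) stood at 31.2, 30.7 and 33.5 CPM in PBS replicates 1–3 and at 251, 232 and 234 CPM with 65–79*PE, and at 23.6, 24.2 and 32.5 against 174, 177 and 178 CPM in replicates 4–6. Its libraries separated widely in both sets, with rises of 7.72-fold and 6.59-fold. *Tap2* (34203527 to 34216321, plus strand) rose 4.24-fold, from 26.2 ± 2.74 to 108 ± 5.10 CPM, and 3.07-fold, from 18.9 ± 1.50 to 58.3 ± 3.85 CPM. Per kilobase, *Tap1* was 0.849 ± 0.130 times *Tap2* in PBS replicates 1–3 and 1.53 ± 0.0740 times with 65–79*PE, and 0.971 ± 0.130 against 2.09 ± 0.116 times in replicates 4–6. *Tapbp*, which encodes tapasin and bridges TAP and the empty heavy chain, had the smallest rise of the 10 in both sets, from 170.3 ± 5.74 to 280.5 ± 10.8 CPM and from 119.9 ± 5.88 to 224 ± 12.4 CPM. Of its 100-base windows, 14.8% recur elsewhere in the annotation.

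The immunoproteasome subunit genes took the highest and some of the middle places. *Psmb9*, which replaces *Psmb6*, stood at 13.1, 14.2 and 11.6 CPM in PBS replicates 1–3 and at 110.3, 111 and 108 CPM with 65–79*PE, and at 6.48, 5.74 and 6.35 against 58.8, 48.2 and 53.1 CPM in replicates 4–6. Every 65–79*PE library was above every PBS library by far more than the spread, and the log2 fold changes of 3.12 ± 0.08 and 3.10 ± 0.11 were alike in both sets, with an interval of −0.28 to 0.25 for their difference. *Psmb9* (34181987 to 34187764, minus strand) and *Tap1* overlap at their starts on opposite strands, and the strand option of the counting was not given in the sources used here, so reads in the overlap cannot be assigned. *Psmb8* (34197721 to 34201454, plus strand), which replaces *Psmb5*, rose 4.84-fold, from 56.4 ± 5.03 to 266 ± 3.59 CPM, and 4.38-fold, from 42.1 ± 0.629 to 184 ± 18.3 CPM. *Psmb10*, which replaces *Psmb7* and lies outside the MHC on chromosome 8 (105935735 to 105938444, minus strand), rose 3.86-fold, from 47.2 ± 1.21 to 177 ± 4.88 CPM, and 4.10-fold, from 35.1 ± 2.27 to 144 ± 7.36 CPM.

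*Nlrc5*, the regulator that is recruited to class I promoters, rose with its known targets. It stood at 28.5, 27.7 and 29.7 CPM in PBS replicates 1–3 and at 88.6, 88.2 and 85.9 CPM with 65–79*PE. The levels of replicates 4–6 were 46.8, 52.3 and 73.1 CPM in PBS and 149, 167 and 169 CPM with 65–79*PE. The groups did not overlap within a set, the rises were 3.14-fold and 2.82-fold, and PBS replicate 6 was the highest of the PBS libraries. The gene lies on chromosome 8 (94434356 to 94527272, plus strand).

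The rise with IFNγ and 65–79*PE against PBS differed little between the sets for most of the genes. Of the 10 genes, 2 had a difference between the sets at an adjusted p under 0.05 in edgeR's test of the interaction, against 12.4% of the 15949 genes tested. These were *Tap2*, which rose by 0.43 log2 more in replicates 1–3 (adjusted p = 0.0229), and *H2-K1*, which rose by 0.35 more (adjusted p = 0.0325). For the other 8 genes the differences lay between −0.18 and 0.28.

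With 65–79*SE the sets of replicates disagreed. All 10 genes were higher than PBS in every library of replicates 1–3, and 9 were called, against 12.6% of genes called higher. For the separation of libraries, the share over all genes is again not at hand. The rises ran from 2.36-fold for *B2m* to 7.91-fold for *Psmb9* among the called genes, with a median log2 fold change over the 10 of 1.73. *Tap1* stood at 214, 214 and 218 CPM and *Psmb9* at 96.2, 97.8 and 109 CPM, each far above its PBS libraries given above. *Tapbp*, at 239.6, 243 and 241 CPM, was also above every PBS library, but its rise of 1.45-fold (adjusted p = 1.79e-06 in edgeR) was under the fold threshold.

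Among the libraries labelled 65–79*SE replicates 4–6, no gene of the 10 was called against PBS, where 0.72% of genes were called in either direction. At an unadjusted p under 0.05 there were 5 of the 10, and DESeq2 called 0. *Tap1* stood at 18.2, 19.5 and 21.1 CPM against 23.6, 24.2 and 32.5 CPM in PBS, *Psmb9* at 7.20, 6.53 and 5.70 CPM against 6.48, 5.74 and 6.35 CPM, and *H2-K1* at 309, 360.1 and 336 CPM against 389.8, 371 and 450.3 CPM. The *Psmb9* libraries overlapped PBS, and those of *H2-K1*, *Tap1*, *Tap2*, *Psmb8* and *Nlrc5* all lay below it. The share of all genes that lay below PBS in this way is not at hand. The median log2 fold change was −0.17 over the 10, beside 0.00 over all genes tested. The log2 fold changes ran from −0.52 for *Nlrc5* to 0.15 for *Psmb10*, and *Tap2*, at −0.44 (95% interval −0.65 to −0.24), was the gene with an adjusted p under 0.05 (0.0481 in edgeR), short of the fold threshold. The difference between the sets itself had an adjusted p under 0.05 for all 10 genes, from 0.64 log2 for *Tapbp* to 3.21 for *Tap1*, against 37.6% of genes tested.

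**Figure D2:**
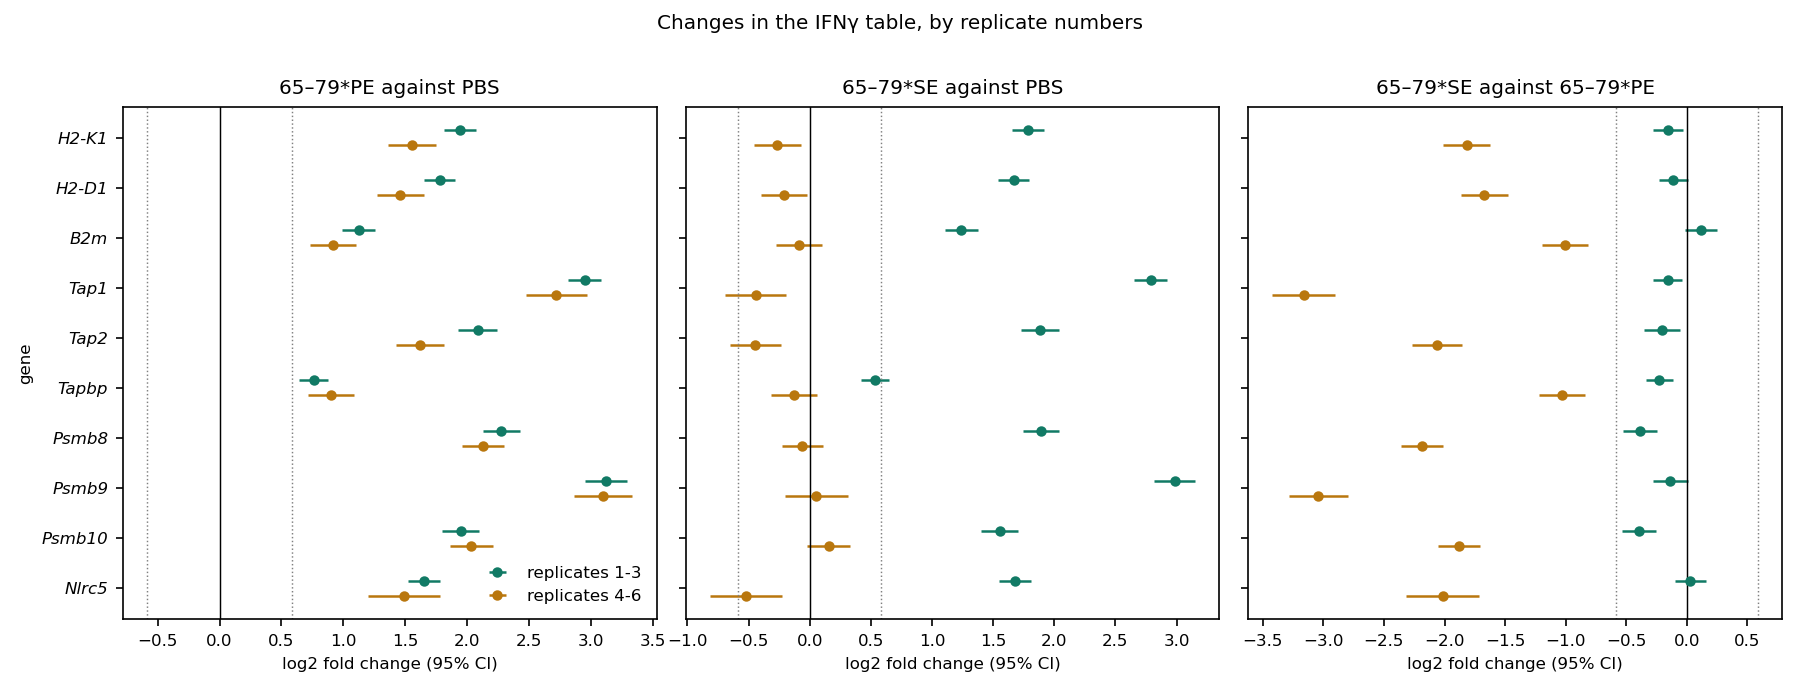
Log2 fold changes of the 10 genes in the IFNγ table with their 95% intervals from edgeR, for each contrast and each set of 3 libraries a group; dotted lines mark a fold of 1.5. For 65–79*PE against PBS every point lies above a fold of 1.5 in both sets. For 65–79*SE the points of replicates 4–6 lie between −0.52 and 0.15 against PBS and those of replicates 1–3 between 0.53 and 2.98.

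The peptides were compared directly at the same dose and time. In replicates 1–3, where both peptide groups had the IFNγ response, none of the 10 genes was called between 65–79*SE and 65–79*PE with edgeR, against 6.08% of genes called in either direction; 6 had an unadjusted p under 0.05, and DESeq2 called 0. *Psmb10* stood at 125, 146 and 137 CPM with 65–79*SE and at 172, 179 and 182 CPM with 65–79*PE, without overlap, a log2 difference of −0.39 (95% interval −0.54 to −0.25, edgeR adjusted p = 0.000858). *Psmb8*, at 193, 214 and 208 against 268, 261 and 268 CPM, also did not overlap and differed by −0.39 (−0.53 to −0.24, adjusted p = 0.000994). *Tapbp* differed by −0.23 (−0.34 to −0.11, adjusted p = 0.00711) and *Tap2* by −0.20 (−0.35 to −0.05, adjusted p = 0.0471). So 4 genes of peptide cutting and loading were lower with 65–79*SE past the p threshold, by less than 1.5-fold.

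For the remaining 6 genes the difference in replicates 1–3 did not pass the adjusted p threshold, and the intervals bound its size. *Nlrc5* differed by 0.03 (−0.10 to 0.15), *B2m* by 0.12 (−0.02 to 0.25) and *Psmb9* by −0.14 (−0.28 to 0.01), each with overlapping libraries. *H2-K1* at −0.16 (−0.28 to −0.03) and *Tap1* at −0.16 (−0.28 to −0.04) missed the threshold after adjustment (0.0617 and 0.0570 in edgeR), as did *H2-D1* at −0.11 (−0.23 to 0.01). For *H2-K1*, *H2-D1* and *Tap1* every 65–79*SE library nonetheless lay below every 65–79*PE library, and the intervals of *H2-K1* and *Tap1* did not reach 0. All 10 genes were called lower with 65–79*SE in replicates 4–6, from 2.01-fold for *B2m* to 8.96-fold for *Tap1*, against 7.9% of genes, in the libraries that stood apart from their label. The contrast differed between the sets for all 10 genes, against 30.6% of genes tested.

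Pooled over the 18 libraries with the set of replicates as a term, 65–79*PE against PBS called all 10 genes higher, against 6.55% of genes. The pooled contrast of 65–79*SE with PBS called 4 higher (*B2m*, *Psmb8*, *Psmb9* and *Psmb10*), against 2.83%, and that of 65–79*SE with 65–79*PE called 6 lower (*H2-K1*, *H2-D1*, *Tap2*, *Tapbp*, *Psmb8* and *Psmb10*), against 1.17%. Each pooled value on 65–79*SE averages libraries near PBS with libraries near 65–79*PE, and for none of the 10 genes did those 6 libraries separate from either other group. Without any 1 of replicates 1, 2 or 3 the first count became 0, in fits that called 29, 14 and 16 genes in all, against 569. Without replicate 4, 5 or 6 it was 8, 7 and 9, in fits that called 884, 785 and 1108 genes. The second count became 1, 1 and 2 without replicate 4, 5 or 6, in fits that called 296, 296 and 372 genes, against 509.

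The exchange of catalytic subunits was followed as the share of *Psmb8*, *Psmb9* and *Psmb10* in the summed CPM per kilobase of the inducible subunits and of *Psmb5*, *Psmb6* and *Psmb7*. The share in replicates 1–3 of the IFNγ table was 14.7 ± 0.917% in PBS (SD, n = 3), 34.4 ± 1.13% with 65–79*SE and 40.3 ± 0.910% with 65–79*PE. The 65–79*SE libraries, at 33.2, 35.4 and 34.7%, lay below all 65–79*PE libraries, at 41.2, 40.2 and 39.4%. For replicates 4–6 it was 11.97 ± 0.529% in PBS, 12.6 ± 0.708% in the libraries labelled 65–79*SE and 38.4 ± 1.93% with 65–79*PE. In replicates 1–3 the ratio of each pair was higher with either peptide than in PBS. *Psmb10* to *Psmb7* went from 0.882 ± 0.0191 in PBS to 1.65 ± 0.147 with 65–79*SE and 2.21 ± 0.0442 with 65–79*PE. *Psmb8* to *Psmb5* went from 0.170 ± 0.0172 to 0.598 ± 0.00653 and 0.643 ± 0.0443. For this pair the peptide groups overlapped, at 0.592 to 0.605 and 0.599 to 0.688. *Psmb9* to *Psmb6* went from 0.0241 ± 0.00329 to 0.162 ± 0.0116 and 0.206 ± 0.0110. With 65–79*PE in replicates 4–6 the ratios were, in that order, 2.33 ± 0.0232, 0.784 ± 0.110 and 0.104 ± 0.0124. Per kilobase, *Psmb9* thus stayed far below *Psmb6*, while *Psmb10* passed *Psmb7* in both peptide groups of replicates 1–3. The shares and ratios rest on union exon lengths, which need not be those of the transcripts present. These were 1705 bases for *Psmb10* and 3421 for *Psmb7*, and 3381 for *Psmb8* and 899 for *Psmb5*. In CPM, *Psmb10* with 65–79*SE, at 136 ± 10.8, stayed below *Psmb7* (level below), so the order within a pair depends on the lengths used. In the libraries labelled 65–79*SE replicates 4–6 the ratios were 0.757 ± 0.113 for *Psmb10* to *Psmb7*, 0.184 ± 0.00891 for *Psmb8* to *Psmb5* and 0.0112 ± 0.000927 for *Psmb9* to *Psmb6*, beside 0.643 ± 0.04998, 0.174 ± 0.0103 and 0.0112 ± 0.000731 in PBS. These are ratios of transcripts, and *Psmb5* shares 22.2% of its 100-base windows with other annotated genes.

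**Figure D3:**
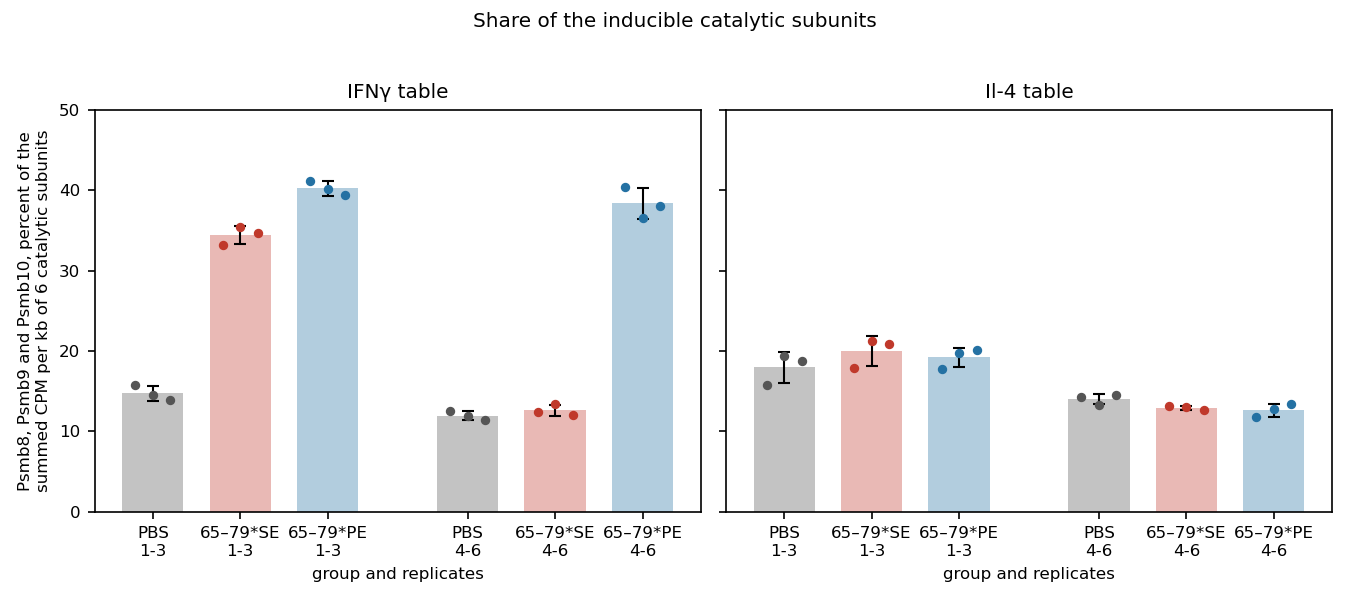
Share of the inducible catalytic subunits among 6 catalytic subunit genes, in percent of summed CPM per kilobase, for each library (points), with bars at the mean and error bars of 1 SD over 3 libraries. In the IFNγ table it lies near 40% with 65–79*PE in both sets and at 33.2 to 35.4% with 65–79*SE in replicates 1–3, while in the Il-4 table every group lies between 11.8 and 21.3%.

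The constitutive subunits moved less. Of *Psmb5*, *Psmb6* and *Psmb7*, 1 was called with 65–79*PE against PBS in replicates 1–3 and 0 in replicates 4–6 (edgeR, with 1 at an unadjusted p under 0.05 and 0 called by DESeq2). That gene, *Psmb7*, rose by 0.62 log2 with 65–79*PE and by 0.65 with 65–79*SE in replicates 1–3, from 107 ± 2.70 CPM to 161 ± 4.34 and 165 ± 3.59 CPM. Its PBS, 65–79*SE and 65–79*PE levels in replicates 4–6 were 109.6 ± 1.62, 104 ± 6.40 and 124 ± 7.53 CPM, and its change with 65–79*PE differed between the sets by 0.41 (adjusted p = 0.00466 in edgeR). None of the other 11 subunits of the 20S core was called in either set by edgeR or DESeq2, with median log2 fold changes of 0.30 and 0.19, although 10 and 9 of them had an unadjusted p under 0.05.

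The genes around the 10 in the pathway were counted from lists chosen by function. Of the other class I heavy chains, which include the Q and T region genes, 16 of 17 tested were higher with 65–79*PE in replicates 1–3 and 13 of 15 in replicates 4–6, with medians of 1.88 and 1.77. The exceptions were *H2-T24*, at −0.43 and −0.36, and in replicates 4–6 also *H2-T3*, at 1.55 with an adjusted p of 0.0703 in edgeR. *H2-Q6*, a Qa-2 type gene, went from 103 ± 2.39 to 445 ± 13.8 CPM and from 34.6 ± 4.48 to 157 ± 3.30 CPM, and *H2-Q5* from 40.3 ± 2.06 to 184 ± 9.81 CPM and from 29.2 ± 6.78 to 116.8 ± 7.51 CPM. *H2-T10* went from 9.27 ± 1.13 to 46.7 ± 1.96 CPM and from 7.86 ± 0.290 to 28.8 ± 2.07 CPM. In the annotation of the reference genome, *H2-Q5*, *H2-T10* and *H2-Bl* of this list are polymorphic pseudogenes and *H2-K2* is a transcribed pseudogene. *H2-Q5* and *H2-Q6* share 100-base windows with each other and with further Q genes, and 28.1% of those of *H2-T10* recur in *H2-T22* and other genes, so the split of reads among such copies is uncertain. In the libraries labelled 65–79*SE replicates 4–6, 0 of 15 were called against PBS with edgeR (9 at an unadjusted p under 0.05, DESeq2 0), and 16 of 17 were higher in replicates 1–3. Between the peptides in replicates 1–3, 0 of 17 were called (6 unadjusted, DESeq2 0).

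Among the genes of peptide trimming and loading, 2 of 7 rose with 65–79*PE in each set. *Tapbpl*, a tapasin relative that edits the peptide, rose from 14.9 ± 0.817 to 60.5 ± 1.72 CPM and from 13.2 ± 1.85 to 46.7 ± 0.966 CPM, and *Erap1*, the aminopeptidase that trims precursors in the endoplasmic reticulum, from 37.7 ± 7.24 to 68.7 ± 8.22 and from 89.1 ± 0.845 to 187 ± 15.9 CPM. Of 5 genes of the proteasome activators and of assembly, the same number rose in each set: *Psme1* and *Psme2*, which make the PA28 cap. *Psme1* rose by 1.71 and 1.67 log2 and *Psme2* by 1.33 and 1.18. Of 3 class I related molecules tested, *Mr1*, which presents vitamin metabolites, was called at 0.73 in replicates 1–3, and 0 were called in replicates 4–6 (edgeR, 2 at an unadjusted p under 0.05, DESeq2 0).

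Of 17 regulators, 4 were higher with 65–79*PE in each set and 1, *Nfya*, was lower in replicates 1–3 (−0.61). *Irf1*, an interferon-induced activator of class I genes, went from 15.2 ± 0.801 to 105 ± 9.70 CPM and from 14.0 ± 0.399 to 116.7 ± 1.91 CPM. *Irf8*, a myeloid factor, rose by 0.66 and 0.99 log2. With 65–79*SE in replicates 1–3, *Irf1* reached 67.9 ± 4.38 CPM, below 65–79*PE by 0.65 log2 (adjusted p = 5.81e-05 in edgeR), and in the libraries labelled 65–79*SE replicates 4–6 it was at 13.8 ± 0.774 CPM. All 10 genes of the class II pathway were called higher with 65–79*PE in both sets, several of them from PBS levels near 0. In replicates 1–3, 2 of the 10 were lower with 65–79*SE than with 65–79*PE, and *H2-Ab1* reached 331 ± 19.97 CPM and 555 ± 31.5 CPM with 65–79*SE and 65–79*PE, a difference of −0.76 (adjusted p = 6.04e-06 in edgeR) that was larger than that of any of the 10 class I and immunoproteasome genes in those libraries. *H2-Ab1* was at 0.308 ± 0.156 CPM in the libraries labelled 65–79*SE replicates 4–6.

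**Figure D4:**
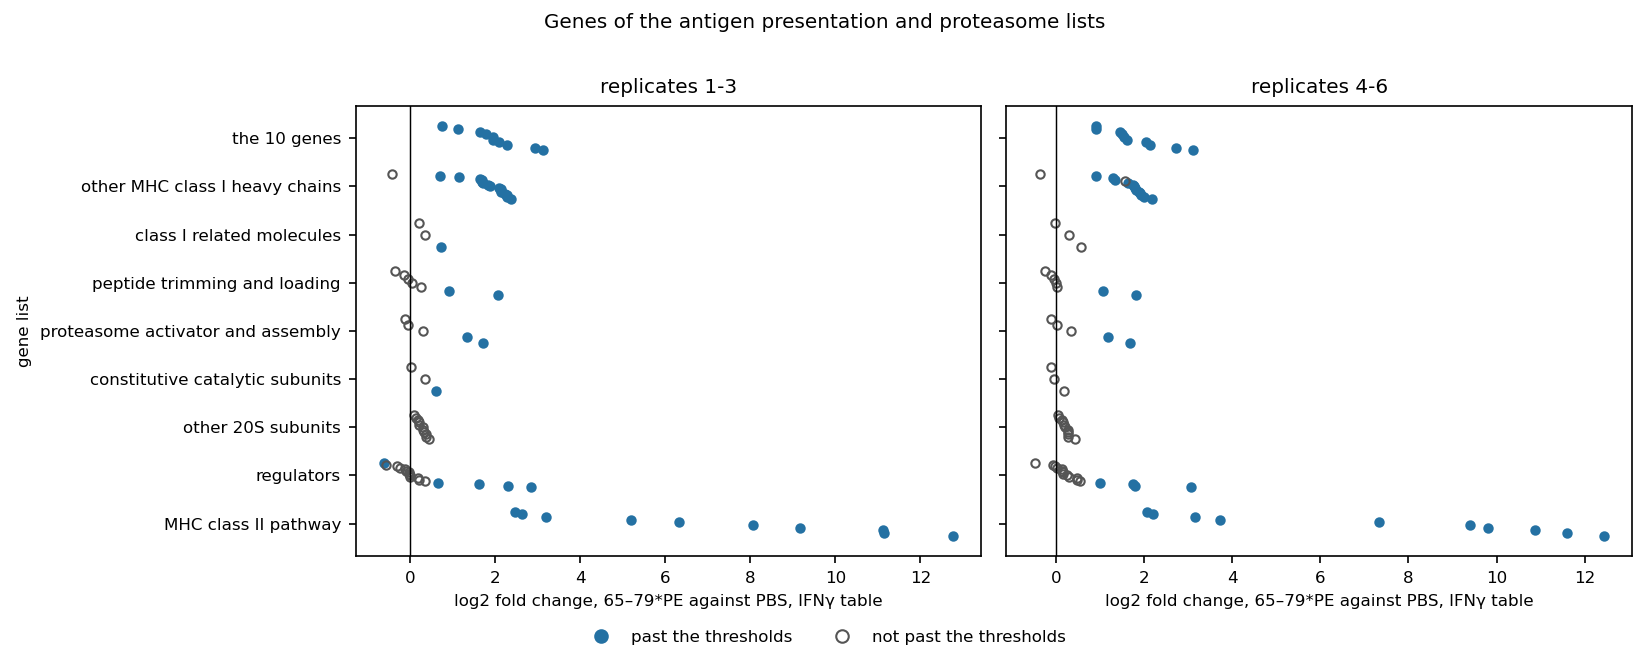
Log2 fold change of each tested gene with 65–79*PE against PBS in the IFNγ table, by list, for replicates 1–3 and 4–6; filled points passed an adjusted p of 0.05 and a fold of 1.5. The heavy chains and the 10 genes lie mostly between 1 and 3, the constitutive and structural proteasome subunits near 0, and class II genes reach over 10; the sizes for class II genes with PBS near 0 depend on the prior count and are not measured folds.

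In the Il-4 table few of the 10 genes were called. Of the 10 genes, 0 were called with 65–79*PE against PBS in replicates 1–3, against 3.95% of 12350 genes in either direction, with 2 at an unadjusted p under 0.05 and 0 called by DESeq2. With 65–79*SE 1 was called higher, *Psmb10*, against 3.07% of genes. *Psmb10* stood at 61.1, 77.2 and 76.0 CPM in PBS, at 96.7, 135 and 114 CPM with 65–79*SE and at 94.4, 101 and 106 CPM with 65–79*PE. Both peptide groups lay above every PBS library, by 0.74 log2 (95% interval 0.46 to 1.02, edgeR adjusted p = 0.00665) and by 0.54 (0.26 to 0.82, adjusted p = 0.0269), the second under the fold threshold. Without replicate 2 or replicate 3 the rise of *Psmb10* with 65–79*SE was 0.67 or 0.79 log2 and was no longer called, in fits that called 27 and 35 genes in all, against 795 with the 3 replicates.

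*Nlrc5* went the other way in these libraries. It stood at 29.7, 30.5 and 29.9 CPM in PBS, at 21.04, 16.5 and 22.2 CPM with 65–79*SE and at 19.4, 24.5 and 19.98 CPM with 65–79*PE, so that every peptide library was lower. The differences of −0.55 (edgeR adjusted p = 0.0173) and −0.45 (adjusted p = 0.0461) were under 1.5-fold. The heavy chains moved up slightly with 65–79*SE, *H2-D1* by 0.36 (adjusted p = 0.0219) and *H2-K1* by 0.30 (adjusted p = 0.0338), with every 65–79*SE library above every PBS library. Over the 18 Il-4 libraries, *Nlrc5* was also the gene of the 10 that did not follow the others. Its r to the mean standardized level of the rest was −0.29, beside 0.74 to 0.97 for the other 9, each compared with its own rest. The libraries share their set, depth and RNA content, and the value is a description.

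For Il-4 replicates 4–6, none of the 10 was called with 65–79*PE (edgeR, against 2.24% of 13472 genes, with 3 at an unadjusted p under 0.05 and 2 called by DESeq2) or with 65–79*SE (against 1.05%, with 1 and 0). *Tapbp* stood at 99.6, 118 and 157 CPM in PBS and at 63.9, 69.8 and 89.7 CPM with 65–79*PE, and *Tap1* at 24.5, 26.7 and 27.2 against 17.5, 17.5 and 16.8 CPM. Both were lower in every 65–79*PE library, as were *H2-K1*, *H2-D1* and *B2m*, and 9 of the 10 genes had log2 fold changes below 0. Their median was −0.23 over the 10, beside −0.01 over all genes tested. The share of all genes that separated or fell below 0 in this way is not at hand. The log2 fold changes of *Tapbp* and *Tap1* were −0.75 (adjusted p = 0.0753 in edgeR) and −0.60 (adjusted p = 0.109). With the replicate number as a block, which paired these libraries, 2 were called lower, against 2.98% of genes called lower in that fit: *Tapbp* at −0.74 (adjusted p = 0.0190 in edgeR) and *Tap2* at −0.61 (adjusted p = 0.0294).

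Between the peptides no gene of the 10 was called in the Il-4 table in either set with edgeR, where 0% of all genes were called, with 1 of the 10 at an unadjusted p under 0.05 in each set and 0 called by DESeq2. The intervals of 65–79*SE against 65–79*PE in replicates 1–3 reached from −0.38 for *Nlrc5* to 0.48 for *Psmb10*, and in replicates 4–6 up to 0.98 for *Tap1*. Pooled over the 18 libraries the counts were 0 of 10 for 65–79*PE against PBS (4.35% of genes, 4 unadjusted), 0 for 65–79*SE against PBS (3.1%, 2 unadjusted) and 0 between the peptides (0.00741%, 2 unadjusted), and DESeq2 called 0 in each. *Tap1* and *Nlrc5* with 65–79*PE, at −0.37 (adjusted p = 0.0426) and −0.44 (adjusted p = 0.0424), and *Psmb10* with 65–79*SE, at 0.46 (adjusted p = 0.0162), passed the p threshold alone. The differences between the sets had an adjusted p under 0.05 for 0 of 10 genes in each Il-4 contrast, against 0.00741% of genes for 65–79*PE with PBS, 4.83% for 65–79*SE with PBS and 0% between the peptides.

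Of the lists around the 10, the heavy chains had 0 of 13 genes called with 65–79*PE (edgeR, 3 at an unadjusted p under 0.05, DESeq2 0) and 1 of 13 with 65–79*SE in Il-4 replicates 1–3, and 0 of 15 in replicates 4–6 with either peptide (5 and 0 unadjusted, DESeq2 1 and 0). The class II genes had 3 and 4 of 7 called higher in replicates 1–3, at levels such as 1.06 ± 0.396 CPM of *H2-Ab1* with 65–79*PE, against 555 ± 31.5 CPM under IFNγ.

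The tables were counted separately, so the tests between them compared contrasts, and levels set side by side across tables are descriptions. The change with 65–79*PE against PBS was larger in the IFNγ than in the Il-4 table for all 10 genes, in replicates 1–3 (against 21.7% of genes with a difference in either direction), in replicates 4–6 (20%) and over both (32.5%). In replicates 1–3 the difference ran from 0.69 log2 for *Tapbp* to 3.04 for *Tap1*, and in replicates 4–6 from 1.02 for *B2m* to 3.23 for *Tap1*. The contrast of 65–79*SE with 65–79*PE differed between the tables for 1 gene in replicates 1–3, *Psmb10* (−0.61, 95% interval −0.92 to −0.29, adjusted p = 0.0253 in edgeR), against 3.84% of genes. *Psmb10* was there lower with 65–79*SE than with 65–79*PE under IFNγ and 0.20 (−0.08 to 0.48) the other way under Il-4. Within replicates 4–6 and over both sets the contrast differed for all 10 genes, against 20.7% and 12.9%, with the libraries labelled 65–79*SE replicates 4–6 of the IFNγ table in those counts.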

How the data were processed

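The authors made stranded mRNA libraries of RAW264.7 cells and deposited whole-number counts of single-end reads per gene, not normalized, in 1 table for IFNγ and 1 for Il-4. The submitters' processing notes name featureCounts, DESeq2 1.16.1, R 3.4.1 and GRCm38.p5. The aligner and the strand option were not given in the sources used here.

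The deposited counts were analysed in R 4.3.3 with edgeR 4.0.16 (quasi-likelihood test, TMM, filterByExpr) on all genes, in 9 libraries for each set of replicates and in 18 with the set as a term. Differences between sets and between tables were tested as interactions. Tests were run on simulated data first. Levels are TMM-scaled CPM, per kilobase of union exon length where genes are compared. The 10 genes were named in full, and of each list up to 3 genes, those called the same way in both sets at 10 CPM or more with the largest change under IFNγ and 65–79*PE; *H2-T24*, *H2-T3*, *Mr1*, *Psmb7*, *Nfya*, *Jak1*, *Socs1* and *Fcgrt* were named after their values were seen. 1 gene that this rule names is not reported here. Members and lists were chosen with earlier results of these data known. Alternatives were RLE size factors, DESeq2 1.42.0, other filters, protein-coding genes only, the replicate block, all 18 libraries and each replicate left out; for the differences between tables, RLE and the filter of 10 counts in every library were added after seeing the data. Gene positions are those of GENCODE M21 for GRCm38, and promoter windows are from RefSeq.

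The replicate number was checked as a pairing: in 2 of 12 pairs of groups, both from the Il-4 table, every same-numbered pair of libraries correlated above 0.1 (0.172 to 0.423 for 65–79*PE with PBS in replicates 4–6, and 0.140 to 0.398 for the peptides in replicates 1–3). Libraries with the same labels in both tables had at most 0.311% equal counts and were treated as different.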

Additional observations from a re-analysis of the deposited data

Results flagged for a closer look

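The effects below differed between the 2 sets of replicates or between the tables, by edgeR's test of the interaction at an adjusted p under 0.05. Between replicates 1–3 and 4–6 of the IFNγ table, 65–79*SE against PBS differed for 10 of the 10 genes, against 37.6% of genes tested. The contrast of 65–79*SE with 65–79*PE differed for 10, against 30.6%. For 65–79*PE against PBS the count was 2, *Tap2* and *H2-K1*, against 12.4% of genes. The difference for 65–79*SE against PBS was 3.21 log2 for *Tap1*, 2.91 for *Psmb9*, 2.18 for *Nlrc5* and 1.31 for *B2m*, and the libraries labelled 65–79*SE replicates 4–6 also lacked the class II transcripts. What those cells received was not tested.

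Between the tables, 65–79*PE against PBS differed for 10 genes in replicates 1–3 (21.7% of genes tested), 10 in replicates 4–6 (20%) and 10 over both (32.5%). Over both, *Tap1* differed by 3.13 and *B2m* by 1.06 log2. The contrast of the peptides differed for 1 gene in replicates 1–3, *Psmb10* (3.84% of genes tested), for 10 in replicates 4–6 (20.7%) and for 10 over both (12.9%).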

How the results depend on the processing

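For 65–79*PE against PBS in the IFNγ table, all 10 genes stayed called within each set under every alternative run, and the pooled call was lost for *H2-D1* alone, with no term for the set (adjusted p = 0.0518 in edgeR). The pooled count of 4 genes for 65–79*SE against PBS became 7 with DESeq2, 8 with no low count filter, 0 with the replicate block, 0 with no term for the set of replicates and 0 to 9 without 1 replicate. The pooled count of 6 genes between the peptides became 3 with the replicate block, 0 with no term for the set and 1 to 7 without 1 replicate. Over all genes the calls for 65–79*SE against PBS went from 569 to 907 with no low count filter, 148 with the block and 25 with no term for the set. Those between the peptides went from 509 to 340 with the block and 83 with no term for the set. In the Il-4 table, the 1 gene called with 65–79*SE in replicates 1–3 became 2 in the fit of all 18 libraries, which called 861 genes in all. Without 1 replicate it was 0 to 1, in fits that called 27 to 1904 genes. The 0 genes called with 65–79*PE in replicates 4–6 became 2 with DESeq2, 1 with no filter, 2 with the replicate block, 2 in the fit of all 18 libraries and 0 to 1 without 1 replicate, the 1 without replicate 4. Over all genes, against 302, edgeR called 619 with no filter, 635 with the block, 498 in the 18 libraries and 402 without replicate 4. The calls of DESeq2 over all genes are not at hand for any contrast. The replicate block changed no other count of calls. Of the fold changes recomputed, 1010 kept direction and side of the thresholds, 30 crossed to significance, 48 lost it and 1 reversed, *B2m* with 65–79*SE against PBS in IFNγ replicates 4–6, at −0.09, whose values without 1 replicate ran from −0.162 to 0.023, the last without replicate 6. Of the levels recomputed with RLE size factors or with protein-coding genes only, 140 stayed the same and 100 moved, so CPM levels depend on the normalization. The causes were not tested. Low counts limited none of the 10 genes, since the lowest mean was 6.19 CPM.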

Other observations

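Genes beyond the 10 moved with them, and *Tapbpl* and *Cd74* among those named here belong to the lists above. Over the 18 IFNγ libraries, and among 9103 genes with a mean of at least 10 CPM, the levels most like the mean of the 10 standardized log2 levels were those of *Tapbpl* (r = 0.997), *C1ra* (0.994), *Cd74* (0.994), *H2-Ea-ps* (0.993) and *Ifi47* (0.992). Each of the 10 was compared with the mean of the rest without itself, where *Tap1* had r = 0.997 and *B2m* the lowest, 0.521. Over the 18 Il-4 libraries and 8771 genes they were *Bst2* (0.977), *Stard3* (0.972), *Gipc1* (0.969), *Denr* (0.968) and *Rrp9* (0.967). These are descriptions, since the libraries share groups, sets, depth and RNA content.

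Some further genes of the lists moved under Il-4. *Socs1*, an inhibitor of cytokine signalling, had 0.752 ± 0.185 CPM in PBS replicates 1–3 of that table, with rises of 2.47 log2 to 4.06 ± 0.799 CPM for 65–79*SE and of 2.45 to 3.99 ± 0.409 CPM for 65–79*PE. Its log2 fold changes of 1.02 and 1.06 in replicates 4–6 were not called (adjusted p = 0.142 and 0.0976 in edgeR). *Fcgrt*, the neonatal Fc receptor, which also pairs with β2-microglobulin, rose by 0.83 and 0.91 log2 in replicates 1–3 and by 1.21 with 65–79*PE in replicates 4–6, where its fold change with 65–79*SE, 0.69, was not called (adjusted p = 0.131 in edgeR). The log2 fold changes of *B2m* were 0.02, 0.00, −0.20 and 0.12 in the same contrasts, with no call.

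Under IFNγ in replicates 1–3, *Jak1*, a kinase of the IFNγ receptor, stood at 178 ± 21.01 CPM with 65–79*SE and 103 ± 10.6 CPM with 65–79*PE, a difference of 0.78 log2 (adjusted p = 4.38e-05 in edgeR) opposite in sign to that of *Irf1*. In replicates 4–6 it stood at 180.0 ± 8.62 and 213 ± 9.51 CPM. In PBS of the IFNγ table, *Nlrc5* averaged 57.4 ± 13.8 CPM in replicates 4–6 and 28.6 ± 0.989 CPM in replicates 1–3, and *B2m* 1279 ± 149 and 626 ± 28.0 CPM, whereas *Psmb9* averaged 6.19 ± 0.399 and 12.99 ± 1.28 CPM.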
